A study of Mus musculus with 3 samples.

Results

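Among CD11b+ cells of the fetal mouse brain, 529 cells combined a set of macrophage genes with a high content of Spp1 mRNA and carried no UMI (unique molecular identifier, 1 per captured transcript) of Lyve1 or Cd163. They were chosen by measured values: 500 or more detected genes, mitochondrial UMIs of no more than 10%, UMIs of at least 3 of the 6 core genes Mrc1, Pf4, F13a1, Ms4a7, Cbr2 and Folr2, at least 10 Spp1 UMIs, and 0 UMIs of Lyve1, Cd163, Ccr2 and Gp9. They made up 529 of the 36354 cells kept by the quality limits, out of 44013 deposited barcodes, and are called Spp1-high gated cells here. The levels of these 11 genes are therefore a description of the choice and not a result.

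The cells came from 3 droplet libraries of E18.5 fetal brains, enriched for CD11b, an integrin chain of myeloid cells, with magnetic beads. The Gzmb-cko polyIC library came from mice with the genotype Ncr1-cre;gzmbf/f and poly(I:C), the Ncr1-cre polyIC library from Ncr1-cre mice and poly(I:C), and the Ncr1-cre saline library from Ncr1-cre mice and saline. Poly(I:C) is a synthetic RNA duplex used to set off an antiviral response, and Ncr1-cre acts in natural killer cells and kindred lymphocytes. Granzyme B, the product of Gzmb, is a protease with which such cells kill targets. All 3 libraries carry Ncr1-cre, and no Gzmb-cko saline library is among them, so the Gzmb deletion cannot be set against its own saline control. The protocols speak of pregnant mice. They give no dose or day of injection, no count of pooled fetuses, and no word on whether dam or fetus bears the stated genotype. With 1 library per group there is no replicate of any condition: differences between libraries carry counting intervals only, and no p-value.

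Macrophages of the fetal brain fall into microglia, which live within the tissue, and border-associated macrophages of the meninges, perivascular spaces and choroid plexus. Mrc1, Pf4, F13a1, Ms4a7, Lyve1 and Cd163 are known in mice from border macrophages, and P2ry12, Tmem119, Sall1 and Siglech from microglia. Spp1 encodes osteopontin, a secreted glycoprotein that binds integrins, and it is known, with Gpnmb, Lgals3, Fabp5, Igf1 and Lpl, from phagocytic microglia of developing axon tracts and of injured or diseased brain.

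The kept cells numbered 13447 in the Gzmb-cko polyIC library, 10759 in the Ncr1-cre polyIC library and 12148 in the Ncr1-cre saline library. Total UMIs ran from 85442198 to 105574073 per library, and the lowest barcode total was 500 in both polyIC libraries and 3133 in the saline library. Gzmb was nearly silent in these myeloid samples and checks the labels only weakly: it had 2 UMIs in 1 cell of the Gzmb-cko polyIC library, 127 UMIs in 6 cells of the Ncr1-cre polyIC library and 61 UMIs in 4 cells of the Ncr1-cre saline library. Between 63 and 71 barcode sequences were shared by any pair of libraries, and 0 of them belonged to a Spp1-high gated cell in both.

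The gate was met in different ways by different cells. Exactly 3 core genes were detected in 47.9% of the Spp1-high gated cells of the Gzmb-cko polyIC library, in 31.3% of those of the Ncr1-cre polyIC library and in 38.1% of those of the Ncr1-cre saline library. Mrc1, the mannose receptor, was the gene most often detected, in 92.8%, 98.5% and 84.1% of the cells of the Gzmb-cko polyIC, Ncr1-cre polyIC and Ncr1-cre saline libraries. Cbr2, a carbonyl reductase, was the least often detected, in 30.9% to 40.3%. Spp1 reached a median of 98.5 UMIs per cell in the Gzmb-cko polyIC library, 67 in the Ncr1-cre polyIC library and 81 in the Ncr1-cre saline library, far from the limit of 10, with a highest cell of 2199 UMIs.

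The core genes, which the gate used, are given as a description. Mrc1 summed to 356.5, 509 and 309.7 counts-per-million (CPM) of all UMIs of the class in the Spp1-high gated cells of the Gzmb-cko polyIC, Ncr1-cre polyIC and Ncr1-cre saline libraries, against 2601, 3779 and 2465 CPM in the Lyve1+Cd163+ macrophages, which passed the same gate with UMIs of both Lyve1 and Cd163. Pf4, the chemokine platelet factor 4, stood at 138 to 216 CPM against 6806 to 7849 CPM in the Lyve1+Cd163+ macrophages. Cbr2 and Folr2, folate receptor beta, stood at about the same CPM in both classes. All 12 fixed microglial markers had UMIs in the gated cells of every library, with a summed level of 8140, 6839 and 5989 CPM in the Gzmb-cko polyIC, Ncr1-cre polyIC and Ncr1-cre saline libraries. The same list summed to 5708, 6224 and 6155 CPM in the Lyve1+Cd163+ macrophages of those 3 libraries and to between 11490 and 14290 CPM in P2ry12+ microglia, the cells with a P2ry12 UMI, fewer than 3 core genes and none of Lyve1, Cd163, Ccr2 and Gp9. By summed level the gated cells thus lay above the Lyve1+Cd163+ macrophages in both polyIC libraries and below them in the saline library. By the median cell they lay above in the saline library too, at 5515 against 4434 CPM. Without the top 5% of cells of each class, the saline sums were 5662 and 5568 CPM. The summed level of the gated cells was below that of P2ry12+ microglia in all 3 libraries. The gated cells are named by their gate only.

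P2ry12, a purinergic receptor of microglia, was detected in 86.0% of the gated cells of the Gzmb-cko polyIC library, 76.1% of those of the Ncr1-cre polyIC library and 70.4% of those of the Ncr1-cre saline library. Thinned to 3000 UMIs per cell, these shares became 46.2%, 41.8% and 35.8% in the Gzmb-cko polyIC, Ncr1-cre polyIC and Ncr1-cre saline libraries. Free RNA limits what they show, because cells with at least 3 neutrophil markers and none of the core genes had P2ry12 in 26.6%, 14.3% and 40.7% of cells of the same 3 libraries after thinning. The saline share of the gated cells lay below that background. Those neutrophil-marker cells also carried Tmem119 in 5.32% to 20.8% of cells after thinning, and how many of them were microglia with neutrophil RNA was not tested.

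Cells at the edge of the gate differed from its core. Gated cells with 10 to 14 Spp1 UMIs numbered 23, 5 and 20 in the Gzmb-cko polyIC, Ncr1-cre polyIC and Ncr1-cre saline libraries, and their Gpnmb summed to 30.6, 54.7 and 138 CPM. Cells just outside, with 5 to 9 Spp1 UMIs, had 49.5, 23.2 and 66.3 CPM of Gpnmb in the same 3 libraries. At the limit on core genes, gated cells with exactly 3 had 428 to 705 CPM of Gpnmb, and cells with 2, which the gate left out, had 247 to 362 CPM.

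The gated cells were a smaller fraction of the Ncr1-cre polyIC library than of the other two. They were 236 of 13447 kept cells in the Gzmb-cko polyIC library, or 1.76% (exact 95% binomial interval 1.54 to 1.99%). In the Ncr1-cre polyIC library they were 67 of 10759, or 0.623% (0.483 to 0.790%), and in the Ncr1-cre saline library 226 of 12148, or 1.86% (1.63 to 2.12%). The interval of the Ncr1-cre polyIC library did not overlap the others, and these intervals cover counting error only. With cells under 3133 UMIs left out, the lower limit of the saline library, the shares were 2.01%, 0.803% and 1.86% in the Gzmb-cko polyIC, Ncr1-cre polyIC and Ncr1-cre saline libraries, and the Gzmb-cko polyIC share then stood above the saline share.

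**Figure D1:**
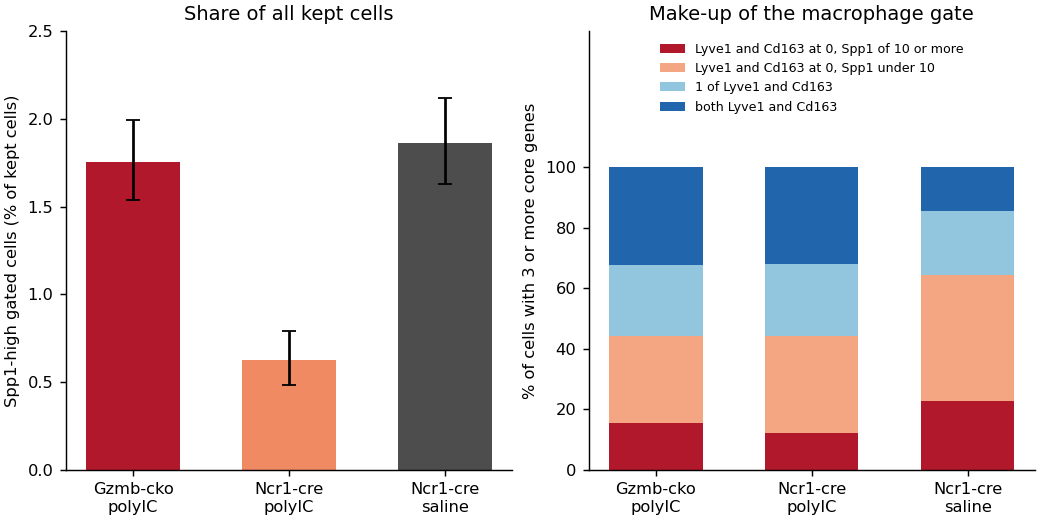
Left, Spp1-high gated cells as a percentage of kept cells in each library, with exact 95% binomial intervals for counting error; right, the make-up of all cells with 3 or more core genes and no Ccr2 or Gp9, as percentages stacked by Lyve1, Cd163 and Spp1. The Ncr1-cre polyIC bar stands at 0.623%, below 1.76% in the Gzmb-cko polyIC library and 1.86% in the saline library, and the cells with both Lyve1 and Cd163 are the smallest fraction in saline.

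Within the macrophage gate the picture was different. Of all cells with at least 3 core genes and no Ccr2 or Gp9, the Spp1-high gated cells were 15.4% (13.6 to 17.3%) in the Gzmb-cko polyIC library, 12.1% (9.50 to 15.1%) in the Ncr1-cre polyIC library and 22.8% (20.2 to 25.6%) in the Ncr1-cre saline library. Cells with both Lyve1 and Cd163 made up 32.3%, 32.1% and 14.5% of the gate in the Gzmb-cko polyIC, Ncr1-cre polyIC and Ncr1-cre saline libraries. The polyIC libraries therefore held a larger Lyve1+Cd163+ fraction, and the saline library a larger Spp1-high fraction. Beside these shares stands the depth of the gated cells, whose median was 15319 UMIs in the Gzmb-cko polyIC library, 13412 in the Ncr1-cre polyIC library and 9885 in the Ncr1-cre saline library. Deeper cells meet a limit of 10 Spp1 UMIs more easily and a limit of 0 Lyve1 UMIs less easily, and the part of depth in these shares was not tested beyond the thinning. With every cell thinned to 3000 UMIs the gate took 0.585% (0.456 to 0.740%), 0.329% (0.219 to 0.476%) and 0.733% (0.589 to 0.901%) of the Gzmb-cko polyIC, Ncr1-cre polyIC and Ncr1-cre saline cells, and the intervals of both polyIC libraries then overlapped.

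The classes were compared with edgeR's quasi-likelihood test on UMIs summed per class and library, with the library as a block, in 3 sums against 3. A gene was called at a Benjamini-Hochberg adjusted p under 0.05 and a log2 fold change of at least 1 in size. The 11 gate genes and P2ry12 were left out. Because the classes were drawn on gate genes, genes that go with the gate genes were bound to differ, and the 3 comparisons share the sums of the gated cells. Levels below are CPM of summed UMIs, and folds are those of the gated cells over the class named.

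Against the 818 Lyve1+Cd163+ macrophages, the gated cells had more mRNA of genes known from disease-associated microglia and of lipid-handling genes, and less of border macrophage genes. Of 9391 genes tested, 290 (3.09%) were called higher and 381 (4.06%) lower in the gated cells. Gpnmb (chr6:49036546-49070929, plus strand, mm10), a transmembrane glycoprotein of lysosomes and a marker chosen with these results known, had 419, 393 and 576 CPM in the gated cells of the Gzmb-cko polyIC, Ncr1-cre polyIC and Ncr1-cre saline libraries. In the Lyve1+Cd163+ macrophages it had 13.4 CPM in the Gzmb-cko polyIC library, 0 UMIs in the Ncr1-cre polyIC library, which allows up to 2.03 CPM, and 10.6 CPM in the Ncr1-cre saline library. The classes did not overlap in any library, and Gpnmb was called higher in the gated cells (edgeR adjusted p = 1.73e-07). A UMI of Gpnmb was found in 54.2%, 58.2% and 63.7% of the gated cells of the Gzmb-cko polyIC, Ncr1-cre polyIC and Ncr1-cre saline libraries (38.9%, 35.8% and 51.3% after thinning to 3000 UMIs). It was found in at most 2.78% of Lyve1+Cd163+ macrophages and at most 0.769% of cells with neuron markers, whose median depth was 4262 to 4619 UMIs.

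Lgals3, encoding galectin-3, a lectin of phagocytes, stood at 599.9, 688 and 765 CPM in the gated cells of the Gzmb-cko polyIC, Ncr1-cre polyIC and Ncr1-cre saline libraries, against 45.1, 52.8 and 63.8 CPM in their Lyve1+Cd163+ macrophages. The log2 fold change was 3.92 ± 0.13 (SE; edgeR adjusted p = 1.71e-09), with no overlap. Fabp5 and Fabp3, which bind fatty acids inside the cell, rose by 3.13 ± 0.16 and 3.73 ± 0.33 on the log2 scale, and the apolipoprotein gene Apoc1 by 3.41 ± 0.23. Apoe, the main lipid carrier of the brain, was already abundant in the Lyve1+Cd163+ macrophages, at 15680 to 20260 CPM, and stood at 34340 to 38200 CPM in the gated cells. Cd9, a tetraspanin, had a log2 fold change of 2.86 ± 0.13 and the adhesion receptor gene Adgre5 a log2 fold change of 2.33 ± 0.33, which was 0.91 against cells with either Lyve1 or Cd163, under the limit of the call. Other genes named by size were Syngr1, Bcl2a1b, Rgs1, Slc16a3, a lactate transporter, and Lilrb4a, an inhibitory receptor, all between 2.28 and 2.99 on the log2 scale.

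Of genes known from disease-associated microglia and from microglia of axon tracts, 21 of 23 tested were called higher, with a median log2 fold change of 1.48 against -0.00 over all genes tested. Of genes of lipid uptake, storage and efflux, 12 of 21 were called higher and 1 lower (median 1.24). Lysosomal genes were higher by less: 10 of 29 were called, with a median of 0.82, among them Ctsd, the gene of the protease cathepsin D, at 6475 to 8656 CPM in gated cells against 2356 to 2684 CPM in Lyve1+Cd163+ macrophages. Of glycolysis genes, 10 of 16 were called higher (median 1.21), for example the aldolase gene Aldoa at 643 to 875 CPM in gated cells against 286 to 289 CPM. Csf1, a growth factor for macrophages themselves, had 153, 100.3 and 84.7 CPM in the gated cells of the Gzmb-cko polyIC, Ncr1-cre polyIC and Ncr1-cre saline libraries, against 45.3, 34.6 and 50.2 CPM in the Lyve1+Cd163+ macrophages (log2 fold change 1.67 ± 0.16).

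The genes named as lower than in Lyve1+Cd163+ macrophages included pattern-recognition lectins. Mgl2, a C-type lectin, had 0.521 CPM in the gated cells of the Gzmb-cko polyIC library, 0 UMIs in those of the Ncr1-cre polyIC library, which allows up to 3.17 CPM, and 1.65 CPM in those of the Ncr1-cre saline library, against 108, 136 and 87.0 CPM in the Lyve1+Cd163+ macrophages of the same libraries. Clec10a, a closely related lectin gene, stood at 2.08 to 3.29 CPM in gated cells against 61.8 to 84.0 CPM. Fcna, encoding ficolin A of the lectin pathway of complement, fell by 3.11 ± 0.13 on the log2 scale, and Ccl24, a chemokine for eosinophils, by 3.71 ± 0.14. Ccl7, Cfp, Bmp2, Cyr61 and H19 were also among the 12 named by size. Chemokines as a list had no common direction, with 5 of 12 tested called lower and 4 higher (median -0.03). The 4 higher ones were Ccl6, Cxcl16, Ccl9 and Ccl4, at log2 fold changes of 1.495, 1.46, 1.07 and 1.06. The named set also held Sox11, Meis2 and Map1b, genes of developing neurons, at log2 fold changes of -3.42, -3.35 and -3.24. Of 4 neuron markers tested, 4 were called lower in the gated cells, so neuronal RNA was higher in the Lyve1+Cd163+ macrophages, and Sox11 and Meis2 did not pass with stricter limits on genes and mitochondrial UMIs. Of 11 border macrophage genes tested, 10 were called lower (median -2.54). Dab2, an endocytic adaptor, was lower in the gated cells (log2 fold change -1.68 ± 0.12), and the scavenger receptor gene Stab1, at 719 to 794 CPM in gated cells against 1237 to 1332 CPM, was lower by less than the limit of the call (-0.50).

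Ms4a genes, which encode membrane-spanning proteins of leukocytes, had no common direction here. Of 6 tested, 1 was called higher and 1 lower, with a median of 0.05, and Ms4a6c stood at 405, 599.6 and 580.4 CPM in the gated cells of the Gzmb-cko polyIC, Ncr1-cre polyIC and Ncr1-cre saline libraries, against 678, 549 and 555 CPM in Lyve1+Cd163+ macrophages (edgeR adjusted p = 0.848). Of 26 interferon-stimulated genes, 2 were called lower (median -0.54). Without the Ncr1-cre polyIC library 12 were called lower (median -0.85), and without the Gzmb-cko polyIC library 1 was called lower and 1 higher (median 0.22), so the direction of the list depended on which library was left out. Of 21 immediate early and heat shock genes, which can rise when cells are dissociated, 10 were called lower in the gated cells and 1 higher (median -0.96). The part of handling in the class difference was not tested.

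Against all 22227 P2ry12+ microglia, the gated cells had more mRNA of lipid-handling, scavenger receptor and Ms4a genes, and less of microglial markers. Of 13031 genes tested, 460 (3.53%) were called higher and 467 (3.58%) lower. Gpnmb stood at 10.9 to 19.4 CPM in P2ry12+ microglia, a log2 fold change of 5.07 ± 0.12 (edgeR adjusted p = 3.32e-17). Igf1, the insulin-like growth factor, had 620.3, 512 and 536 CPM in the gated cells of the Gzmb-cko polyIC, Ncr1-cre polyIC and Ncr1-cre saline libraries, against 124, 77.4 and 86.3 CPM in P2ry12+ microglia, so that the lowest gated value was about 4 times the highest microglial value. Apoe was higher by 1.69 ± 0.08 on the log2 scale. Of 24 lipid genes, 15 were called higher (median 1.60, against -0.05 over all genes tested), and of 23 disease-associated genes 16 (median 1.32). Lysosomal genes were called higher in 5 of 29 cases and glycolysis genes in 0 of 16 (medians 0.55 and 0.70). Interferon-stimulated genes were also higher, 12 of 26 by the call (median 0.93), and 7 of 26 without the Ncr1-cre polyIC library (median 0.72).

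Among scavenger and engulfment receptors, 10 of 18 were called higher in the gated cells (median 1.64). Stab1 stood at 719 to 794 CPM against 221 to 257 CPM in P2ry12+ microglia. Cd36, which takes up oxidised lipids, had 33.6, 85.5 and 54.3 CPM in the gated cells of the Gzmb-cko polyIC, Ncr1-cre polyIC and Ncr1-cre saline libraries, against 2.20, 3.81 and 3.90 CPM in P2ry12+ microglia, and rose by 4.28 ± 0.17 on the log2 scale. Colec12, a scavenger collectin, rose by 4.18. All 6 Ms4a genes tested were called higher (median 2.64), led among the named genes by Ms4a6c, at 405 to 599.6 CPM against 58.9 to 73.5 CPM. Ms4a7 was a gate gene, so its relatives on the same gene cluster are not independent of the choice. Wfdc17, Ahnak, Lilrb4a, Adgre5, Lgals1, Lgals3, Serpinb6a and Aph1c completed the list named by size, with log2 fold changes of 2.80 to 4.06.

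Several microglial markers were lower. Tmem119 had 56.5, 53.8 and 53.9 CPM in the gated cells of the Gzmb-cko polyIC, Ncr1-cre polyIC and Ncr1-cre saline libraries, against 277, 317 and 249.5 CPM in P2ry12+ microglia, and fell by 2.10 ± 0.10 on the log2 scale. Siglech, a sialic-acid-binding lectin, fell by 1.51 ± 0.10, Sparc, a secreted matrix protein of microglia, by 1.83 ± 0.10, and Sall1, a transcription factor that maintains microglial identity, by 1.40 ± 0.13. Of 11 microglial markers tested, 5 were called lower (median -0.80). The other genes named as lower were Ecscr, Slc2a5, a fructose transporter, Meg3, Egr1, Crybb1, Naaa, Ptgs1 and Stfa1, with log2 fold changes from -2.18 to -1.44. Stfa1, a stefin also found in neutrophils, rested on the Gzmb-cko polyIC library: its log2 fold change was -1.44 ± 0.41, and -0.47 without that library.

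**Figure D2:**
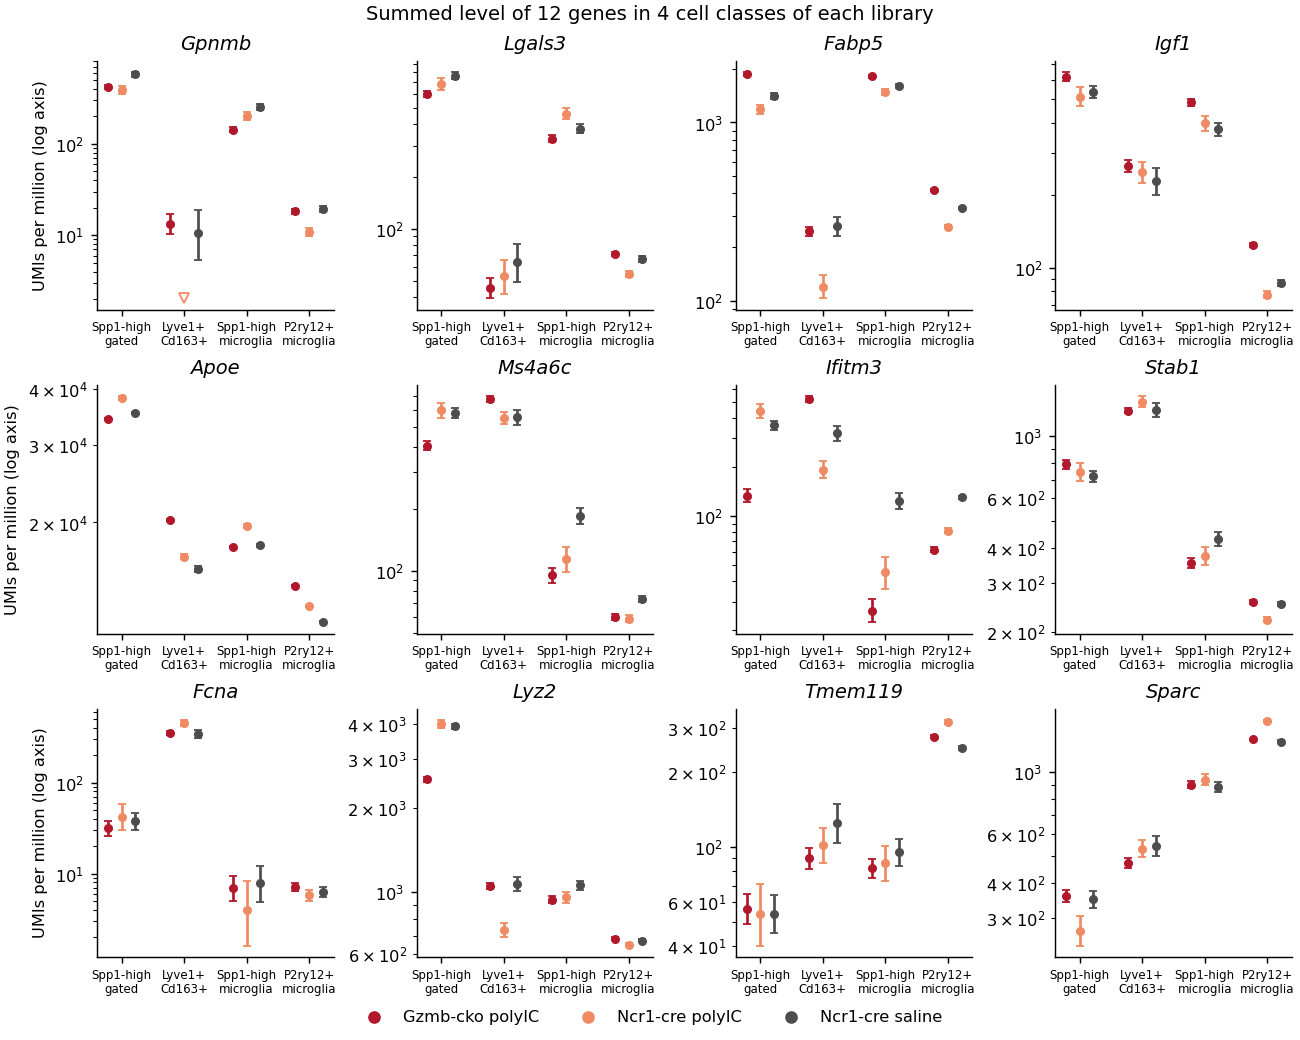
Summed level (CPM, log axes) of 12 genes in 4 classes of cells of each library, with 95% Poisson intervals for counting error; open triangles mark the level that 3 counts would give where a class had 0 UMIs. Gpnmb, Lgals3, Apoe and Igf1 are highest in the Spp1-high gated cells, Fcna is highest in Lyve1+Cd163+ macrophages, and Tmem119 and Sparc are lowest in the gated cells.

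The closest class was the 970 P2ry12+ microglia that also had at least 10 Spp1 UMIs, which numbered 490, 171 and 309 in the Gzmb-cko polyIC, Ncr1-cre polyIC and Ncr1-cre saline libraries. These Spp1-high microglia shared part of the lipid profile. Of 21 lipid genes tested, 8 were called higher in the gated cells and 0 lower (median 0.12). Of 9599 genes tested, 183 (1.91%) were called higher in the gated cells and 62 (0.646%) lower. Fabp5 did not pass the test, at 1866, 1186 and 1410 CPM in the gated cells of the Gzmb-cko polyIC, Ncr1-cre polyIC and Ncr1-cre saline libraries against 1815, 1474 and 1606 CPM in Spp1-high microglia (log2 fold change -0.04 ± 0.07, edgeR adjusted p = 0.784). Trem2, a lipid-sensing receptor, had a log2 fold change of 0.02 there. Of 23 disease-associated genes, 5 were called higher and 2 lower (median 0.22, against -0.01 over all genes). Of 29 lysosomal and 16 glycolysis genes tested, 0 were called in either direction (medians 0.07 and -0.10).

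Gpnmb still differed from Spp1-high microglia, at 393 to 576 CPM in gated cells against 144 to 253 CPM, a log2 fold change of 1.36 ± 0.09 (edgeR adjusted p = 7.8e-08). Apoe rose by 1.08 ± 0.04. Ms4a and interferon-stimulated genes were higher too. All 5 Ms4a genes tested were called higher (median 1.66), and 16 of 23 interferon-stimulated genes were called higher (median 1.41), 9 of 23 without the library block. Ifitm3, an antiviral membrane protein, had 134, 438 and 359 CPM in the gated cells of the Gzmb-cko polyIC, Ncr1-cre polyIC and Ncr1-cre saline libraries, against 26.4, 45.5 and 124 CPM in Spp1-high microglia (log2 fold change 2.36 ± 0.19). Lyz2, lysozyme, had 2542, 4011 and 3924 CPM in the gated cells of those 3 libraries, against 941, 960.5 and 1061 CPM, and rose by 1.90 ± 0.09. For both genes every gated value lay above every Spp1-high microglia value. Cybb, the catalytic chain of the phagocyte oxidase, and Ccr1, a chemokine receptor, were also named, with Ahnak, Wfdc17, Adgre5, Ednrb, Ms4a6c, Serpinb6a, Cd36 and Ifi27l2a. The summed level of 8 monocyte markers in the gated cells was 108, 294.5 and 239 CPM in the Gzmb-cko polyIC, Ncr1-cre polyIC and Ncr1-cre saline libraries. In Spp1-high microglia it was 45.9, 54.0 and 193 CPM in the same 3 libraries, and 1 cell held 43.1% of the saline UMIs there. Of 7 markers tested, 3 were called higher in the gated cells than in Spp1-high microglia.

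Genes lower than in Spp1-high microglia were few and included secreted signals. Csf1 had 153, 100.3 and 84.7 CPM in the gated cells of the Gzmb-cko polyIC, Ncr1-cre polyIC and Ncr1-cre saline libraries, against 391, 334 and 300.2 CPM in Spp1-high microglia, and had a log2 fold change of -1.496 ± 0.094. Ccl3 and Ccl4, chemokines that attract leukocytes, fell by 1.42 ± 0.08 and 1.24 ± 0.13. Itgax, the integrin chain CD11c, and Lag3, an inhibitory receptor, fell by 1.16 and 1.17, and Sparc by 1.36. Ank, Serpine2, Asph and Plpp1 were the remaining genes, since 10 met the rule for naming. Some of these calls lay near the limit: without the Gzmb-cko polyIC library the log2 fold change of Ccl4 was -0.93, and without the Ncr1-cre polyIC library those of Itgax, Asph and Plpp1 ran from -0.98 to -0.88. In gated cells with 0 P2ry12 UMIs Ccl4 did not pass the test, at -0.09. Across all 3 comparisons, 38 genes were called higher and 17 lower in the gated cells every time.

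**Figure D3:**
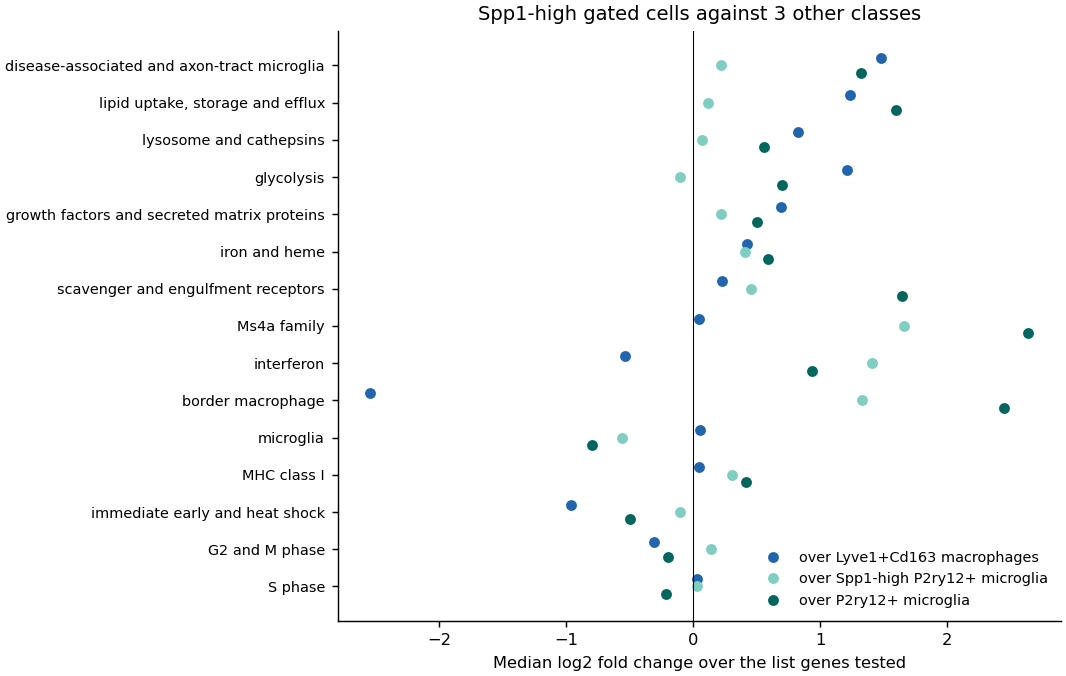
Median log2 fold change of the Spp1-high gated cells over each of 3 other classes, for the tested genes of each list; positive values mean higher in the gated cells. Border macrophage genes have a median of -2.54 against Lyve1+Cd163+ macrophages and 2.45 against P2ry12+ microglia, and interferon-stimulated genes have -0.54 against Lyve1+Cd163+ macrophages (0.22 without the Gzmb-cko polyIC library) and 1.41 against Spp1-high microglia.

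The gated cells were not uniform, and those with Gpnmb had more Lgals3 and Fabp5 mRNA in every library. With each cell thinned to 3000 UMIs, Gpnmb was detected in 91 of 234 gated cells of the Gzmb-cko polyIC library, 24 of 67 of the Ncr1-cre polyIC library and 116 of 226 of the Ncr1-cre saline library. Lgals3 had 989, 1194 and 1006 CPM in the cells with Gpnmb of the Gzmb-cko polyIC, Ncr1-cre polyIC and Ncr1-cre saline libraries, against 224, 271 and 430 CPM in the cells without. Fabp5 went the same way in every library, at 1922 to 2714 CPM with Gpnmb against 798 to 1226 CPM without. Ftl1, the ferritin light chain, and Igf1 were also higher in the cells with Gpnmb in each library. Siglech was lower there, at 69.4 to 100.6 CPM against 140 to 254 CPM in the cells without Gpnmb. These cells were split by a measured gene, so the values are a description with no test.

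Splitting the thinned cells by P2ry12 gave another pattern. Sparc had 444, 500 and 535 CPM in gated cells with P2ry12 of the Gzmb-cko polyIC, Ncr1-cre polyIC and Ncr1-cre saline libraries, against 225, 197 and 225 CPM in those without. Lgals3 ran the other way, at 265 to 387 CPM with P2ry12 against 741 to 915 CPM without. Ms4a6c was close in both, at 410 to 572 CPM against 550 to 726 CPM, as was Apoe. Other genes of lipid handling did not share the direction of Lgals3: Trem2 was higher with P2ry12 in each library, at 1852, 1833 and 1646 CPM against 1717, 1410 and 1501 CPM without, in the Gzmb-cko polyIC, Ncr1-cre polyIC and Ncr1-cre saline libraries. Lpl, lipoprotein lipase, had 546, 536 and 342 CPM with P2ry12 against 521, 350.4 and 439 CPM without, so its direction differed between libraries. When only the 33, 16 and 67 gated cells with 0 P2ry12 UMIs at full depth in the Gzmb-cko polyIC, Ncr1-cre polyIC and Ncr1-cre saline libraries were used, the Ncr1-cre polyIC share of kept cells was again lowest, at 0.149% (0.0850 to 0.241%) beside 0.245% (0.169 to 0.344%) in the Gzmb-cko polyIC library and 0.552% (0.428 to 0.700%) in the Ncr1-cre saline library, with overlapping intervals between both polyIC libraries.

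Between libraries, the gated cells differed in interferon-stimulated genes, cell division genes and genes of other blood cells. The Gzmb-cko polyIC over Ncr1-cre polyIC and the Ncr1-cre polyIC over Ncr1-cre saline ratios share the Ncr1-cre polyIC library and its 67 cells, so a value that is high or low there moves both ratios in opposite directions. Of 5269 genes with enough UMIs, 363 (6.89%) were past 1.5-fold higher and 296 (5.62%) past 1.5-fold lower in the Gzmb-cko polyIC library than in the Ncr1-cre polyIC library. Of 3958 genes, 309 (7.81%) were higher and 166 (4.19%) lower in the Ncr1-cre polyIC library than in the Ncr1-cre saline library. That last split depended on scaling: with trimmed-mean (TMM) scaling it was 154 higher and 253 lower, and the median log2 ratio over all genes was -0.01 with TMM against 0.13 without. Lists below use genes with at least 30 UMIs, of which 12.3% were past 1.5-fold higher and 8.58% lower in the Gzmb-cko polyIC over Ncr1-cre polyIC ratio, and 11.8% higher and 8.09% lower in the Ncr1-cre polyIC over Ncr1-cre saline ratio.

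The promoters of Isg15 and Ifitm3 are printed because they carry the element through which interferons act on genes that were among the lowest in the Gzmb-cko polyIC over Ncr1-cre polyIC ratio. The interferon-stimulated response element is known as a binding site of interferon-activated factors, and its core was searched as GAAA, any 2 bases and GAAA again, on both strands, with overlapping matches allowed. Windows are RefSeq sequence of GRCm38.p6 from 250 bases before to 50 after the annotated start, read along the gene, with matches in capitals. The Isg15 window is chr4:156200769-156201068 on the minus strand, and the Ifitm3 window is chr7:141010695-141010994 on the minus strand.

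Isg15: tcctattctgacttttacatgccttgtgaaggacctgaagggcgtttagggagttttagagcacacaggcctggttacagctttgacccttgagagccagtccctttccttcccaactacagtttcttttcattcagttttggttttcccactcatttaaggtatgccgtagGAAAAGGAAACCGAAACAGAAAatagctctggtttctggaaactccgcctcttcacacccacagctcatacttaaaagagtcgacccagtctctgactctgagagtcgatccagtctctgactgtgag

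Ifitm3: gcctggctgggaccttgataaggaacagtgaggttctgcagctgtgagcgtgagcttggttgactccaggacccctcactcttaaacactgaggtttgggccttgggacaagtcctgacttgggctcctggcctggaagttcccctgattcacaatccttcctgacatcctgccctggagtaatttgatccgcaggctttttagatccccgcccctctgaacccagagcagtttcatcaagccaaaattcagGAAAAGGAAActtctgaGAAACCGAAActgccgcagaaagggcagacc

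The Isg15 window held 3 overlapping matches between bases 173 and 194. The Ifitm3 window held 2 matches, at bases 253 to 262 and 270 to 279, both past the annotated start. Of the 18 interferon-list genes with a window, 12 held a match, as did 3.99% of all 27025 genes with a window. A match describes letters in the window and is not evidence of binding.

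Interferon-stimulated genes of the gated cells were highest in the Ncr1-cre polyIC library and lowest in the Gzmb-cko polyIC library. Isg15, a ubiquitin-like protein, had 14.8, 81.3 and 40.7 CPM in the Gzmb-cko polyIC, Ncr1-cre polyIC and Ncr1-cre saline libraries. The Gzmb-cko polyIC over Ncr1-cre polyIC ratio was 0.183 (95% counting interval 0.127 to 0.261) and the Ncr1-cre polyIC over Ncr1-cre saline ratio 2.00 (1.46 to 2.72). Ifitm3 had a Gzmb-cko polyIC over Ncr1-cre polyIC ratio of 0.305 (0.268 to 0.348) and a Ncr1-cre polyIC over Ncr1-cre saline ratio of 1.22 (1.08 to 1.37). Both genes were lowest in the Gzmb-cko polyIC library, below saline as well. Oasl2 and Ifit3, antiviral effectors, had 10.16 and 8.34 CPM in the Gzmb-cko polyIC library, 53.8 and 40.1 CPM in the Ncr1-cre polyIC library, and 20.6 and 16.04 CPM in the Ncr1-cre saline library. Bst2, tetherin, differed by less, with a Gzmb-cko polyIC over Ncr1-cre polyIC ratio of 0.667 (0.602 to 0.740).

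Of 23 interferon-stimulated genes measured, 17 were past 1.5-fold lower in the Gzmb-cko polyIC library than in the Ncr1-cre polyIC library, with a median log2 ratio of -1.12 against 0.04 over all genes. The exceptions in direction were Irf9 and Stat2, both with a ratio of 1.33. In the Ncr1-cre polyIC library, 13 of 23 were past 1.5-fold higher than in saline (median log2 ratio 0.67 against 0.12 over all genes, and 0.54 with TMM scaling). In the gated cells without cycling cells this was 8 of 23, with 3 past 1.5-fold lower (median 0.28). In the other classes the median Gzmb-cko polyIC over Ncr1-cre polyIC log2 ratio of the same genes was 0.50 in Lyve1+Cd163+ macrophages, -0.19 in P2ry12+ microglia and -0.06 in Spp1-high microglia. Ifitm3 itself had a Gzmb-cko polyIC over Ncr1-cre polyIC ratio of 0.581 (0.441 to 0.771) in Spp1-high microglia and 0.767 (0.732 to 0.805) in P2ry12+ microglia, the direction seen in the gated cells, and of 2.71 (2.40 to 3.08) in Lyve1+Cd163+ macrophages. Isg15 had ratios of 1.10 (0.738 to 1.68), 0.704 (0.650 to 0.762) and 1.49 (1.14 to 1.99) in Spp1-high microglia, P2ry12+ microglia and Lyve1+Cd163+ macrophages. The difference between classes in this ratio rests on 1 library per group and was not tested.

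The interferon signal was carried by many cells. The summed level of the list was 1232, 2538 and 1906 CPM in the gated cells of the Gzmb-cko polyIC, Ncr1-cre polyIC and Ncr1-cre saline libraries, and without the top 5% of cells it was 1062, 2034 and 1597 CPM. The median cell had 973 CPM in the Gzmb-cko polyIC library, 1424 in the Ncr1-cre polyIC library and 1378 in the Ncr1-cre saline library. So the 2 Ncr1-cre libraries were close in the median cell and differed in the summed level, while the Gzmb-cko polyIC library was below both by either measure. After thinning, UMIs of at least 3 different genes of the list were found in 45.3% (38.8 to 51.9%) of gated cells of the Gzmb-cko polyIC library. The shares were 61.2% (48.5 to 72.9%) in the Ncr1-cre polyIC library and 60.6% (53.9 to 67.0%) in the Ncr1-cre saline library.

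**Figure D4:**
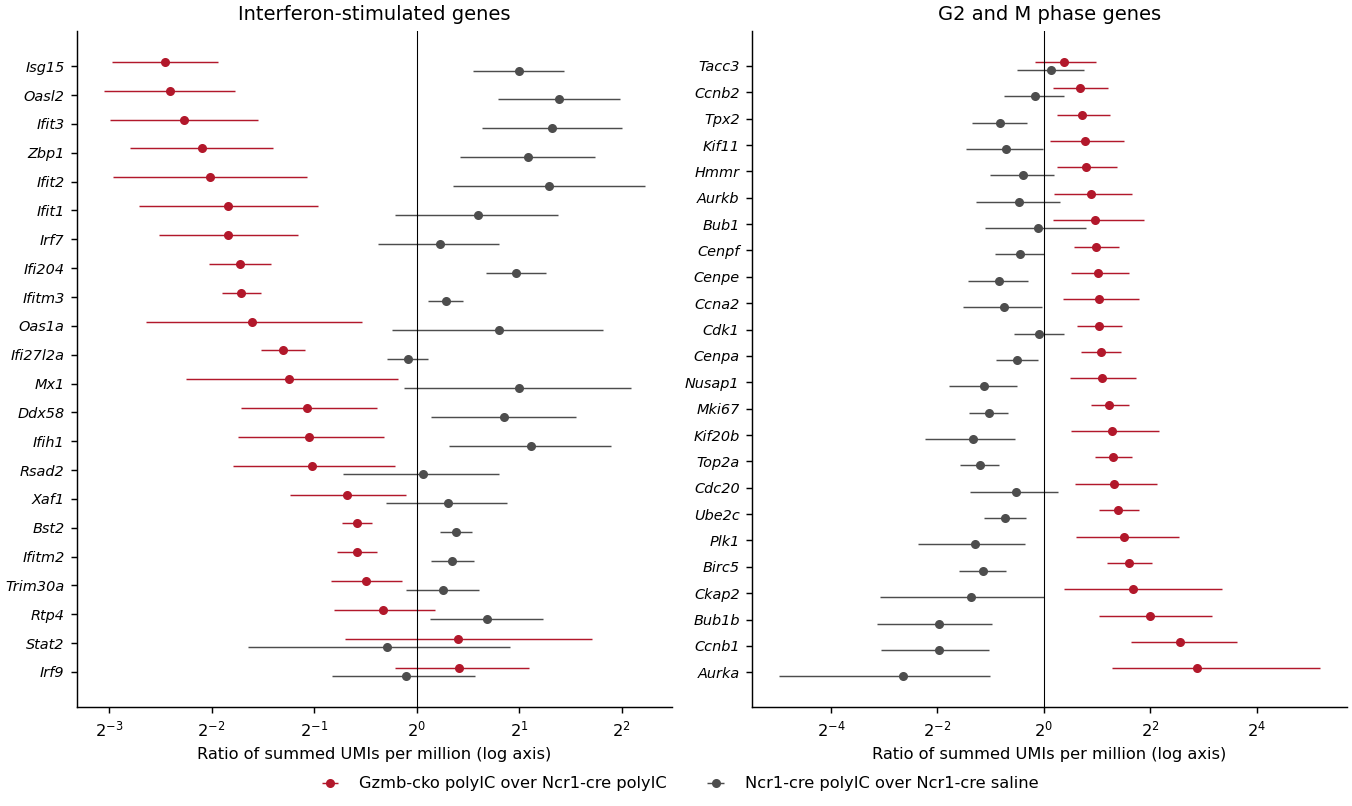
Ratios of summed CPM in Spp1-high gated cells between libraries, for genes of the interferon list (left; 1 measured gene is not shown) and of the G2 and M phase list (right), on log axes with 95% intervals for counting error. Most interferon-stimulated genes lie below 1 in the Gzmb-cko polyIC over Ncr1-cre polyIC ratio, and all 24 G2 and M phase genes lie above 1.

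Genes of cell division ran the other way. The Prc1 promoter is shown as the example, because Prc1, which bundles microtubules at the midzone of dividing cells, was named by size in both ratios and its window holds the motifs known from late cell cycle promoters: a CCAAT box, and the cell cycle homology region searched as TTTGAA, each on both strands. The window is chr7:80294201-80294500 on the plus strand, RefSeq GRCm38.p6, and is 1 of 2 annotated for the gene.

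Prc1: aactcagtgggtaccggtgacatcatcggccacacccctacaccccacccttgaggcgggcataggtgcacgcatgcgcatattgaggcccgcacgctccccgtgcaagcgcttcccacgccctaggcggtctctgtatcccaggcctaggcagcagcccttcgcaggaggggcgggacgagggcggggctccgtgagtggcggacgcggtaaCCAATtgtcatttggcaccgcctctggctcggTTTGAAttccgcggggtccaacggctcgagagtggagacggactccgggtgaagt

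The CCAAT box lies at bases 214 to 218 and TTTGAA at bases 246 to 251. Of 21 G2 and M phase genes with a window, 15 held TTTGAA, as did 20.2% of all genes with a window, and 17 held CCAAT, as did 41.1%.

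Ccnb1, the cyclin that drives entry into mitosis, had 61.8, 10.6 and 41.1 CPM in the gated cells of the Gzmb-cko polyIC, Ncr1-cre polyIC and Ncr1-cre saline libraries, from 237, 10 and 100 UMIs. Its Gzmb-cko polyIC over Ncr1-cre polyIC ratio was 5.85 (3.13 to 12.4), and its Ncr1-cre polyIC over Ncr1-cre saline ratio 0.257 (0.119 to 0.492). Prc1 had a Gzmb-cko polyIC over Ncr1-cre polyIC ratio of 2.94 (1.90 to 4.77), against 0.952 in Lyve1+Cd163+ macrophages, 0.956 in P2ry12+ microglia and 2.27 (1.68 to 3.14) in Spp1-high microglia. Ccnb1 was also higher in the Spp1-high microglia of the Gzmb-cko polyIC library, at a ratio of 1.95 (1.41 to 2.77). For the whole list the median Gzmb-cko polyIC over Ncr1-cre polyIC log2 ratio was 1.06 in the gated cells, 0.59 in Spp1-high microglia, 0.11 in P2ry12+ microglia and 0.01 in Lyve1+Cd163+ macrophages. The higher level in the Gzmb-cko polyIC library was thus found in both Spp1-high classes, and the difference between classes was not tested. Mki67, the proliferation marker, had 186, 79.2 and 162 CPM in the Gzmb-cko polyIC, Ncr1-cre polyIC and Ncr1-cre saline libraries, and Top2a, a topoisomerase, 195, 79.2 and 182 CPM. Of the list, 24 of 24 were higher in the Gzmb-cko polyIC library than in the Ncr1-cre polyIC library and 23 past 1.5-fold, the exception being Tacc3 at 1.30. In the Ncr1-cre polyIC library, 15 of 24 were past 1.5-fold lower than in saline (median -0.77 in the gated cells and -0.49 in Spp1-high microglia).

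These values rest on few cells. The top 5% of gated cells held 38.2%, 55.4% and 45.9% of the G2 and M phase UMIs in the Gzmb-cko polyIC, Ncr1-cre polyIC and Ncr1-cre saline libraries, and 1 cell of the Ncr1-cre polyIC library held 21.9%. The median cell had 217, 182 and 157 CPM in the Gzmb-cko polyIC, Ncr1-cre polyIC and Ncr1-cre saline libraries. After thinning, cells with UMIs of at least 2 of these genes were 36.8% in the Gzmb-cko polyIC library, 26.9% in the Ncr1-cre polyIC library and 29.2% in the Ncr1-cre saline library. With at least 3 of these genes the shares were 29.9% (24.1 to 36.2%), 19.4% (10.8 to 30.9%) and 22.6% (17.3 to 28.6%) in the same 3 libraries, with overlapping counting intervals. Among gated cells with 0 P2ry12 UMIs the difference turned round: 5 of 24 genes were higher in the Gzmb-cko polyIC library than in the Ncr1-cre polyIC library, with a median of -0.36. The Ncr1-cre polyIC over Ncr1-cre saline ratio turned round as well, with 8 of 24 genes past 1.5-fold higher and 2 lower (median 0.21).

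**Figure D5:**
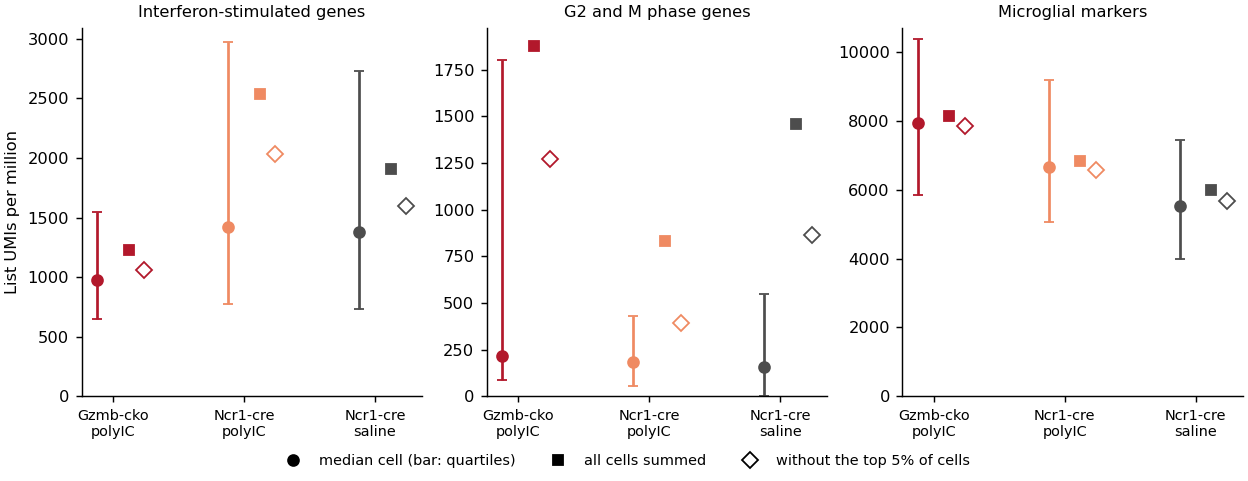
Level of 3 gene lists in the Spp1-high gated cells of each library, in CPM: the median cell with its quartiles, all cells summed, and all cells without the top 5%. The summed interferon level is 1232 in the Gzmb-cko polyIC library, 2538 in the Ncr1-cre polyIC library and 1906 in saline, and the G2 and M phase median cell stands at 217, 182 and 157 in the same libraries.

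Several genes of the cell surface, matrix and cytoskeleton had the same order of libraries as the interferon group. All 5 Ms4a genes measured were lower in the Gzmb-cko polyIC library than in the Ncr1-cre polyIC library, 4 of them past 1.5-fold (median log2 ratio -0.78), and all 5 were higher in the Ncr1-cre polyIC library than in saline. Adgre5 had 37.3, 141.5 and 67.5 CPM, Msr1, a scavenger receptor for modified lipoproteins, 17.5, 68.6 and 42.8 CPM, and Fn1, fibronectin, 12.2, 63.3 and 19.7 CPM in the Gzmb-cko polyIC, Ncr1-cre polyIC and Ncr1-cre saline libraries. Vim, the intermediate filament vimentin, had 365, 1009 and 605 CPM in those libraries and a Gzmb-cko polyIC over Ncr1-cre polyIC ratio of 0.362 (0.333 to 0.393). All 4 were highest in the Ncr1-cre polyIC library. Of 12 microglial markers, 10 were higher in the Gzmb-cko polyIC library than in the Ncr1-cre polyIC library, 4 of them past 1.5-fold (median log2 ratio 0.45). Of all 8527 genes measured, 4659 were higher. The median of the markers was 0.10 among gated cells with 0 P2ry12 UMIs. Without cycling cells 6 of the 12 were higher and 0 past 1.5-fold (median -0.004). Monocyte markers stood at 108, 294.5 and 239 CPM in the same 3 libraries, in the same order as Msr1. Fn1 is itself on that list, Vim is on the list of radial glia markers, and the part of these lists in the ratios was not tested.

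Gpnmb and Apoe, which were higher in the gated cells than in microglia, had Gzmb-cko polyIC over Ncr1-cre polyIC ratios near 1. Gpnmb had a Gzmb-cko polyIC over Ncr1-cre polyIC ratio of 1.07 (0.953 to 1.20), whose interval includes 1, and a Ncr1-cre polyIC over Ncr1-cre saline ratio of 0.682 (0.606 to 0.765). Apoe had ratios of 0.899 and 1.08, and of 23 disease-associated genes 5 were past 1.5-fold higher and 3 lower in the Gzmb-cko polyIC over Ncr1-cre polyIC ratio (median log2 ratio 0.09). Ccl2, a chemokine for monocytes, had 37.8, 88.7 and 27.6 CPM in the Gzmb-cko polyIC, Ncr1-cre polyIC and Ncr1-cre saline libraries. Its Ncr1-cre polyIC over Ncr1-cre saline ratio was 3.22 (2.31 to 4.50), beside 2.54 in Lyve1+Cd163+ macrophages, 2.48 in P2ry12+ microglia and 1.69 in Spp1-high microglia. The Ccl2 UMIs lay in 19 of the 67 gated cells of the Ncr1-cre polyIC library, and 1 cell held 32.1% of them. Of 10 MHC class I genes, 9 were higher in the Ncr1-cre polyIC library than in saline, as were 4699 of all 7594 genes measured, and 3 were past 1.5-fold (median log2 ratio 0.32, and 0.19 with TMM scaling). H2-T23 had 109.8 CPM in the Ncr1-cre polyIC library and 44.8 CPM in the Ncr1-cre saline library.

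RNA of other blood cells differed between the libraries as well. A list of 7 neutrophil markers summed to 28.1, 756 and 3508 CPM in the gated cells of the Gzmb-cko polyIC, Ncr1-cre polyIC and Ncr1-cre saline libraries, and 1 cell held 94.97% of these UMIs in the Ncr1-cre polyIC library. Without the top 5% of cells the neutrophil sums were 21.7, 33.0 and 198 CPM in the same 3 libraries. The 6 erythroid markers summed to 14880, 41890 and 52950 CPM in the Gzmb-cko polyIC, Ncr1-cre polyIC and Ncr1-cre saline libraries, of which the top 5% of cells held 97.8%, 98.2% and 64.9%. Without those cells the erythroid sums were 348, 818 and 20399 CPM, and the median cell had 332, 760 and 3653 CPM. The 7 choroid plexus markers summed to 901.5, 1293 and 1850 CPM in the same 3 libraries. All 3 lists were lowest in the Gzmb-cko polyIC library and highest in the saline library, with and without the top cells. The named genes Stfa1, Stfa3, Lcn2 and Mmp12 lie at the far end of the Ncr1-cre polyIC over Ncr1-cre saline ratios, from 0.0254 for Mmp12 to 0.198 for Stfa1. These genes are on none of the 3 lists, and whether their RNA came from other cells was not tested. The saline Mmp12 UMIs lay in 8 of 226 gated cells, and 44.6% of them came from 1 cell. Markers of natural killer and T cells had 2.11 CPM or less in the gated cells of every library.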

How the data were processed

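The deposited matrices hold whole-number UMI counts per gene and barcode for 3 libraries, 27998 genes each, as deposited by the authors without any scaling. Cell Ranger 5.0.0 made them per the file headers, whereas version 3.0.1, STAR and mm10 stand in the submitters' processing notes. The rule for calling cells is not stated. There were 0 columns without a sample.

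Cells were kept and classed by UMI limits only, without clustering, in Python 3.11.15 (scanpy 1.11.5, scipy 1.17.1). The members of the class and the gene lists were chosen with earlier results of these data known. Doublets called by Scrublet, at an expected 0.8% per 1000 barcodes, were kept and their removal was tried as an alternative. They were 11, 1 and 12 of the gated cells in the Gzmb-cko polyIC, Ncr1-cre polyIC and Ncr1-cre saline libraries. UMIs were summed per class and library. Classes were tested in R 4.3.3 with edgeR 4.0.16 (TMM, filterByExpr, library as a block), with DESeq2 1.42.0 as an alternative. Whether the libraries came from separate litters is not stated, and each was a different condition. The p-values therefore rest on the class difference over 3 libraries only, with the spread of a gene estimated partly from other genes. The SE was the size of the log2 fold change over the square root of the F value of the test. Counts were simulated for the comparisons with Lyve1+Cd163+ macrophages, P2ry12+ microglia and Spp1-high microglia, among 9623, 13310 and 9653 genes. Well-counted genes were changed, and the dispersion was set by hand. Genes raised 2-fold reached an edgeR adjusted p under 0.05 in 50, 44 and 49 of 50 cases. Genes lowered 2-fold did so in 49, 31 and 45 of 50. The log2 fold change limit of the call was not applied there.

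Libraries were compared by ratios of summed CPM with exact conditional binomial intervals, shares by exact Clopper-Pearson intervals. Both cover counting error only. Ratios were counted past 1.5-fold where a gene reached 20 CPM in the higher library and 100 UMIs over both, and list medians used a pseudocount of 1 CPM. Cell Ranger counts reads of 1 gene only, so near-identical genes such as the Stfa and H2 families are uncertain.

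Named genes were, per class comparison and direction, the 12 with the largest log2 fold change among called genes that reached 50 CPM in the higher class and had the same direction in all 3 libraries. Between libraries they were the 12 largest ratios past 1.5-fold with the same direction under TMM scaling and under the mean of per-cell CPM. Both rankings left out gate genes, P2ry12, markers of other cell types, Xist and Y-linked, mitochondrial, ribosomal protein, hemoglobin and predicted genes. List members and class markers were named besides. Of 534 list genes, 532 were matched by symbol, and Clec7a was not analysed here. Single values of 2 list genes are not reported here; list counts and medians include them.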

Additional observations from a re-analysis of the deposited data

How the results depend on the processing

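Leaving out 1 library at a time kept each count of called genes within 1.5 times its main value. The exceptions among other settings were genes lower than in P2ry12+ microglia, 282 with DESeq2 against 467, and genes lower than in Spp1-high microglia, 120 with gated cells of 0 P2ry12 UMIs, 41 with cells of at least 8000 UMIs (chosen after seeing the data), 30 with DESeq2 and 25 without the library block, against 62. No paired analysis was possible between the libraries because each group held 1 library. The class comparisons paired the classes within each library through the library block; without it the counts of higher and lower genes were 286 and 367 against Lyve1+Cd163+ macrophages, 448 and 333 against P2ry12+ microglia, and 132 and 25 against Spp1-high microglia. Interferon-stimulated genes called lower than in Lyve1+Cd163+ macrophages ran from 1 to 12 over these settings. Of the genes named in the class comparisons, Adgre5, Sox11, Meis2, Stfa1, Cd36, Ccl4, Itgax, Asph and Plpp1 lost the call under at least 1 setting, with the same sign.

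The share of gated cells was lowest in the Ncr1-cre polyIC library under each limit tried. In the Gzmb-cko polyIC, Ncr1-cre polyIC and Ncr1-cre saline libraries it was 2.01%, 0.803% and 1.86% with the saline UMI floor, 1.20%, 0.433% and 1.86% with at least 1000 genes and at most 5% mitochondrial UMIs, 2.05%, 0.706% and 2.19% with Spp1 of at least 5, 1.48%, 0.530% and 1.56% with Spp1 of at least 20, 0.915%, 0.428% and 1.15% with 4 core genes, 0.245%, 0.149% and 0.552% with 0 P2ry12 UMIs, and 0.585%, 0.329% and 0.733% thinned. The intervals of both polyIC libraries overlapped in the last 2 of these settings.

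Between the polyIC libraries, genes higher in Gzmb-cko polyIC numbered 193 with 4 core genes, 30 with 0 P2ry12 UMIs and 58 without cycling cells (2 or more G2 and M phase genes), and genes lower 60 with 0 P2ry12 UMIs and 109 without cycling cells. Ncr1-cre polyIC over Ncr1-cre saline gave 152, 154 and 198 higher genes with 0 P2ry12 UMIs, TMM scaling and a total without mitochondrial, ribosomal protein and hemoglobin genes and Spp1, and 107, 69, 253 and 78 lower genes with 4 core genes, 0 P2ry12 UMIs, TMM scaling and no cycling cells. Fewer cells or UMIs pass the count minimum in most of these settings. Ratios that turned over 1 or under it were Hist1h2ap 0.344, Cdca3 0.459, Stfa1 1.38 and Gclm 1.17 without cycling cells and Birc5 0.631 and Fam64a 0.890 with 0 P2ry12 UMIs, for Gzmb-cko polyIC over Ncr1-cre polyIC, and Ccl12 0.884 with Spp1 of at least 20 and Kif20b 1.46 without cycling cells, for Ncr1-cre polyIC over Ncr1-cre saline. The cause was not tested. Between 13 and 20 of 23 interferon-stimulated genes were past 1.5-fold lower in Gzmb-cko polyIC than in Ncr1-cre polyIC in all settings run on the gated cells, and between 8 and 17 were past 1.5-fold higher in Ncr1-cre polyIC than in saline, the 8 without cycling cells. The 67 gated cells and 947279 UMIs of the Ncr1-cre polyIC library limit every ratio.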

Other observations

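The mix of embryos differed between libraries in the gated cells. Xist alone was detected in 33.1% of the gated cells of the Gzmb-cko polyIC library, 55.2% of those of the Ncr1-cre polyIC library and 39.4% of those of the Ncr1-cre saline library, and Y-linked genes alone in 48.3%, 25.4% and 31.9% of them. The P2ry12+ microglia had Xist alone in 32.7%, 50.6% and 40.7% of cells of the Gzmb-cko polyIC, Ncr1-cre polyIC and Ncr1-cre saline libraries, and the part of this mix in the differences between libraries was not tested.

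Iron storage genes were higher in the gated cells than in Lyve1+Cd163+ macrophages and P2ry12+ microglia. Against Spp1-high microglia, 1 of 14 iron and heme genes tested was called higher and 0 lower (median 0.41). Ftl1 and Fth1, the ferritin chains, had log2 fold changes of 1.36 ± 0.11 and 1.25 ± 0.14 over Lyve1+Cd163+ macrophages and of 1.34 ± 0.07 and 1.55 ± 0.09 over P2ry12+ microglia, higher in 3 of 3 libraries. Gdf3, a growth factor of the TGF-beta family, had log2 fold changes of 4.25 ± 0.38, 3.76 ± 0.25 and 1.91 ± 0.21 over Lyve1+Cd163+ macrophages, P2ry12+ microglia and Spp1-high microglia. The complement gene C1qa did not pass the test against Lyve1+Cd163+ macrophages or P2ry12+ microglia, at log2 fold changes of 0.18 and 0.02.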
